A study of Arabidopsis thaliana with 12 samples.

Results

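The genes described are 32 nuclear genes of Arabidopsis thaliana whose products are subunits or carriers of the photosynthetic electron transport chain. They are defined by name, with no threshold on their values: 12 encode subunits of photosystem I, 10 subunits of photosystem II, and 10 the Rieske protein, plastocyanin, ferredoxin, ferredoxin-NADP reductase (FNR) and ATP synthase subunits. All 32 passed the filter on low counts, among 20783 tested genes of the 33602 listed. RNA was sequenced from whole seedlings aged 10 days in 4 groups of 3 libraries: the mutant atrx-2 under low light (30 µmol) and normal light (130 µmol), and wild type Col-0 under the same low and normal light. All plants were grown at the same temperature in long days. ATRX is a chromatin remodeller known for depositing a histone H3 variant, and the study concerns its contact with LHP1, a reader of Polycomb-repressed chromatin. Whether the numbered replicates were grown separately is not in the labels, and the spread behind each p-value may be technical.

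In the thylakoid membrane of the chloroplast, photosystem II takes electrons from water and passes them by way of plastoquinone to the cytochrome b6f complex. Plastocyanin, a soluble copper protein of the lumen, carries them on to photosystem I, which reduces ferredoxin, and FNR uses reduced ferredoxin to make NADPH. The protons moved on the way drive ATP synthase. The reaction centre proteins are encoded in the chloroplast, whereas most peripheral subunits and the soluble carriers are encoded in the nucleus, often by a pair of closely related genes. Plants grown in dim light are known to adjust the amounts of these complexes and of their antennae.

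The upstream sequences of 5 members are given because these genes had among the largest light responses or belong to a paralog pair whose members responded differently. They were picked after the values were seen. Each run holds the 150 bases before the annotated gene start in the TAIR10.1 RefSeq annotation, 5′ to 3′ on the strand of the gene, and none of them overlaps another annotated gene. The corresponding stretches of FD1 and FNR1 overlap a neighbouring gene and are not shown. Capitals mark matches, on either strand, to the G-box CACGTG, the I-box GATAAG or the sequence GGTTAA, each a motif known from light-regulated promoters.
FD2, chr1:22444157-22444306, plus strand: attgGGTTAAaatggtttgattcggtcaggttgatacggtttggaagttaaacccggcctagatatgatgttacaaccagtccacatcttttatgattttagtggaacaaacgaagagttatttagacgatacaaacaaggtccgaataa
FNR2, chr1:6942475-6942624, plus strand: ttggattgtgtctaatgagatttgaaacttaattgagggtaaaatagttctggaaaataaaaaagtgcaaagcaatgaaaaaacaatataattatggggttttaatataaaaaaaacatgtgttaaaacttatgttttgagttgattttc
PSAF, chr1:11216142-11216291, minus strand: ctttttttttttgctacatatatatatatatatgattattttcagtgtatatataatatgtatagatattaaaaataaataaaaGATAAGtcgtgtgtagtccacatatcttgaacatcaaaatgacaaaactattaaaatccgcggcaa
PSBQ1, chr4:11334202-11334351, plus strand: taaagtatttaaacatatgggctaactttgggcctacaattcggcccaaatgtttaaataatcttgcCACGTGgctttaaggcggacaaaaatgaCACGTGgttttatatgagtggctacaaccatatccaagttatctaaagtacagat
PSBQ2, chr4:2673244-2673393, minus strand: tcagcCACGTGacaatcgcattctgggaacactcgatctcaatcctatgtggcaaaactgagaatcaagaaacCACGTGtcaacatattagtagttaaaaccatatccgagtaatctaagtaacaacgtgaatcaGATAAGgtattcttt
PSBQ1 and PSBQ2 each hold 2 G-boxes in these stretches, beginning at positions -83 and -55 relative to the start in PSBQ1 and -145 and -77 in PSBQ2. In the 250 bases before the start, CACGTG was found in 6 of the 32 members (18.8%), against 6.49% of 27443 protein-coding genes. GATAAG was found in 9 members (28.1%, against 12.3%), GGTTAA in 7 (21.9%, against 14.6%) and CCAATC, a further motif searched in the same way, in 4 (12.5%, against 10.2%). The G-box reads the same on both strands, and both matches to GGTTAA in PSAF overlap each other. These are matches of letters, and FNR2, which had the largest rise in atrx-2, held none of the 4 in its 250 bases. Among other members with large light responses, FD1, PSAO and PSAG held none either, while PSAF and PSAE2 held matches.

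Libraries held 13733302 to 23899191 estimated counts, of which the 32 genes took 3.76% to 4.62%. The ATRX locus had 6 to 20 counts in the atrx-2 libraries and 537 to 905 in the wild-type libraries. An 18S ribosomal RNA locus took 9.77% to 16.7% of counts under low light and 3.71% to 8.64% under normal light, and loci of the chloroplast genome took 4.83% to 8.90% under low light and 2.29% to 3.55% under normal light. All CPM values are therefore scaled by TMM factors, which adjust for such large shares. Genes were said to rise or fall where edgeR's quasi-likelihood test gave a Benjamini-Hochberg adjusted p under 0.05 over all 20783 genes. In whole seedlings, fewer green cells and less RNA per cell cannot be told apart.

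The members are among the most abundant nuclear transcripts. Per kilobase of effective length, 22 of them stood among the 100 highest of all tested genes in atrx-2 under either light level and in wild type under low light, and 24 in wild type under normal light. PSBR, a small photosystem II subunit near the oxygen-evolving complex, led in all 4 groups, with 4736 ± 618 and 4981 ± 514 CPM per kilobase in atrx-2 under low and normal light, against 5285 ± 111 and 6073 ± 481 in wild type (SD, n = 3 each). Its replicate values stood clear of the next gene in every group. FNR2, the second leaf FNR gene, had the lowest mean of the members in all 4 groups, at 304 ± 18.1 and 151 ± 7.47 CPM per kilobase in atrx-2 and 294 ± 9.97 and 162 ± 11.2 in wild type under low and normal light. In atrx-2 under low light it overlapped PETE1, a plastocyanin gene at 309 ± 29.2, and in the other 3 groups it lay below PETE1 in every library. The span between the highest and lowest members was 15.6-fold and 33.0-fold in atrx-2 under low and normal light, and 18.0-fold and 37.4-fold in wild type.

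Neighbours in this order mostly overlapped. Of 31 adjacent pairs, replicate values stood apart in 7 and 12 in atrx-2 under low and normal light, and in 11 and 9 in wild type. FD1, a leaf ferredoxin gene, took the 29th place under low light in both genotypes, and the 14th place in atrx-2 and the 12th in wild type under normal light. PSAO, a photosystem I subunit at the docking site for the mobile antenna, took the 2nd place under low light in both genotypes, and the 6th place in atrx-2 and the 5th in wild type under normal light.

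Under low light most photosystem I genes rose, photosystem II genes were split, and carrier and ATP synthase genes fell or were not called, except FNR2, which rose. FD1 fell further than any other member. In atrx-2, 20 of the 32 genes were called (13 higher, 7 lower), where 33.1% of all tested genes were called (16.1% higher, 16.9% lower). In wild type 18 were called (15 higher, 3 lower), where 34.2% of all genes were called (16.6% higher, 17.6% lower). The median log2 of the 32 was 0.13 in atrx-2 and 0.14 in wild type, against 0.0069 and -0.0049 over all genes. Across genotypes 13 members rose in both, against 12% of all genes, and 3 fell in both, against 12.9%; 10 were called in neither, and none was called in opposite directions. Replicate values of the light levels did not overlap in 15 higher and 8 lower members in atrx-2, against 22.9% and 23.1% of all genes, and in 15 higher and 6 lower in wild type, against 22.2% and 23.5%.

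The split by direction depends on scaling. With total counts as library size, 5 members were higher and 8 lower in atrx-2, and 6 higher and 8 lower in wild type, while the median log2 of all genes became -0.15 and -0.18. The shares of all genes called under this scaling are not given here. These counts, and those by family below, therefore cannot be set against a background. After organelle and ribosomal RNA loci were left out, TMM again gave 20 and 18 calls, likewise without the share of all genes. FD1, FNR2, PSAF, PSAO, PSAE2 and PSAG kept their direction and call under every alternative run.

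**Figure D1:**
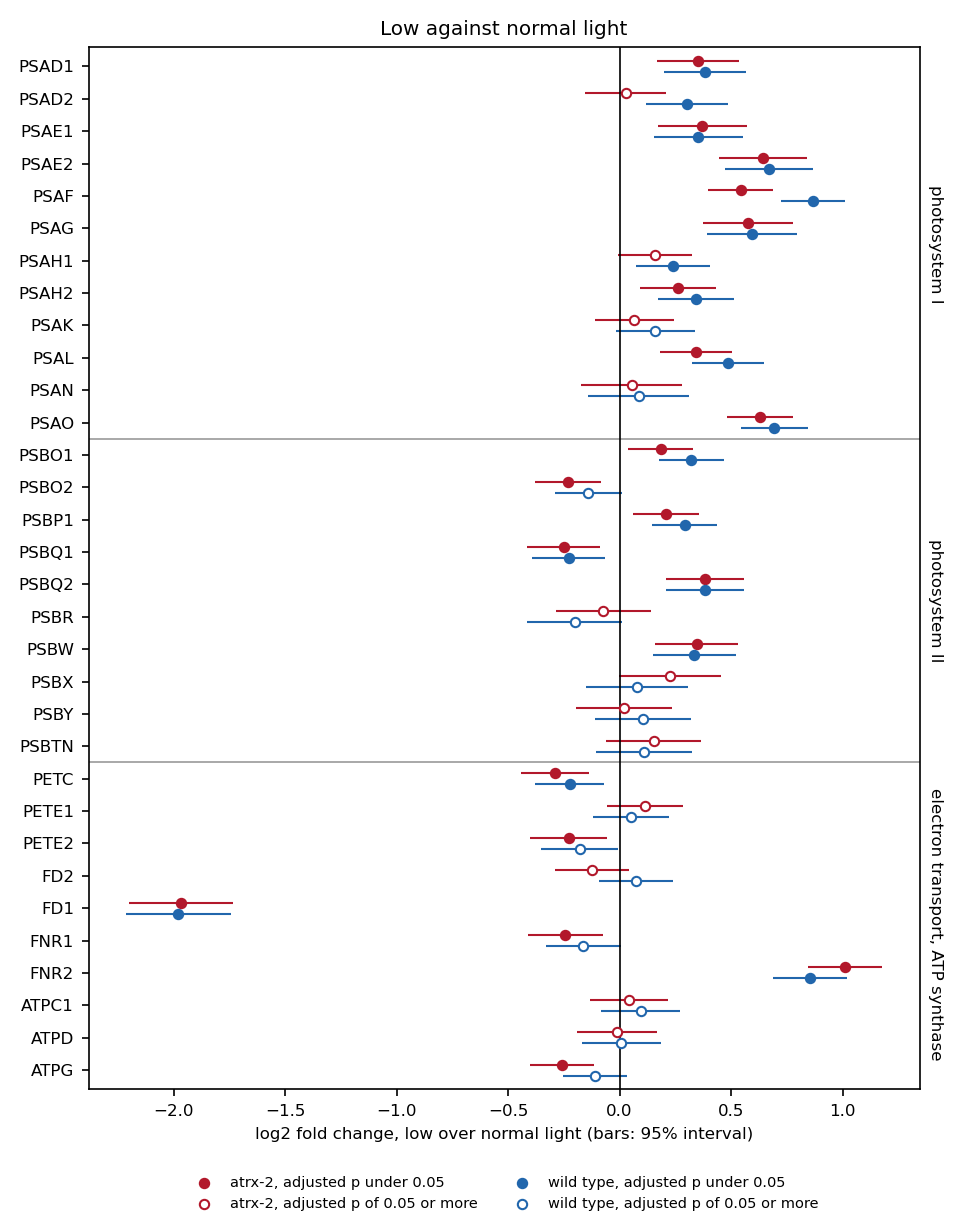
Fitted log2 fold change of each of the 32 genes, low over normal light, in atrx-2 (red) and wild type (blue), grouped by family; bars are 95% intervals and filled points have an adjusted p under 0.05. All 12 photosystem I genes lie above 0 in both genotypes, FD1 lies near -2 and FNR2 near 1.

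Of the 12 photosystem I genes, 8 rose under low light in atrx-2 and 10 in wild type, and none fell. Over all tested genes 16.1% rose and 16.9% fell in atrx-2, and 16.6% and 17.6% in wild type. With total counts as library size, 4 rose in atrx-2 and 5 in wild type, and the calls of PSAD1, PSAE1 and PSAH2 in both genotypes, PSAL in atrx-2, and PSAD2 and PSAH1 in wild type were lost. The median log2 was 0.35 in atrx-2 and 0.37 in wild type. Their summed level was 17520 ± 1449 CPM in atrx-2 under low light, against 13800 ± 446 under normal light, and 19920 ± 733 CPM in wild type under low light, against 14610 ± 743 under normal light (SD, n = 3 each).

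PSAF (AT1G31330, chr1:11214676-11216141) encodes the subunit that docks plastocyanin on the lumen side. In atrx-2, PSAF had 2562, 2447 and 2405 CPM under low light, against 1622, 1759 and 1708 under normal light. Wild type had 3036, 2893 and 2825 CPM under low light, against 1625, 1639 and 1534 under normal light. Low-light values lay above all normal-light values in each genotype, and the atrx-2 low-light libraries lay below those of wild type. The fitted log2 change was 0.54 ± 0.07 (SE) in atrx-2 and 0.87 ± 0.07 in wild type (edgeR adjusted p = 2.52e-05 and 2.91e-07).

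PSAO (AT1G08380, chr1:2640803-2641934) had the next largest photosystem I response in wild type. In atrx-2, PSAO had 2091, 1919 and 1914 CPM under low light, against 1321, 1245 and 1263 under normal light. The wild-type libraries had 2338, 2204 and 2138 CPM under low light, against 1426, 1328 and 1373 under normal light. The light levels did not overlap in either genotype. For PSAO the log2 change was 0.63 ± 0.07 (SE) in atrx-2 and 0.69 ± 0.07 in wild type (edgeR adjusted p = 8.75e-06 and 3.5e-06).

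PSAE2 (AT2G20260, chr2:8736734-8737767) encodes a form of the stromal subunit that helps to bind ferredoxin. In atrx-2, PSAE2 had 415, 367 and 332 CPM under low light, against 253, 237 and 222 under normal light. In wild type it had 426, 402 and 416 CPM under low light, against 276, 235 and 271 under normal light. The lowest low-light library exceeded the highest normal-light library. The log2 change was 0.65 ± 0.09 (SE) in atrx-2 and 0.67 ± 0.09 in wild type (edgeR adjusted p = 9.22e-05 and 6.74e-05).

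PSAG (AT1G55670, chr1:20802670-20803449) encodes a membrane subunit at the edge of the complex, where antenna proteins attach. In atrx-2, PSAG had 2164, 1871 and 1641 CPM under low light, against 1315, 1295 and 1202 under normal light. Wild type had 2027, 2170 and 1962 CPM under low light, against 1457, 1300 and 1323 under normal light. All low-light values exceeded all normal-light values, and atrx-2 spread widely under low light. The fitted log2 change was 0.57 ± 0.09 (SE) in atrx-2 and 0.59 ± 0.09 in wild type (edgeR adjusted p = 0.0003 and 0.000228).

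The other photosystem I genes had smaller fitted changes. PSAL, which with PSAH and PSAO forms the side of the complex where the mobile antenna docks, rose (log2 0.34 in atrx-2 and 0.49 in wild type), as did PSAD1 and PSAE1, which encode stromal subunits of the ferredoxin site (log2 0.35 and 0.37 in atrx-2, 0.38 and 0.35 in wild type). PSAH2 rose by 0.26 in atrx-2 and 0.34 in wild type, and its call in atrx-2 was lost without atrx-2 normal-light replicate 3 or low-light replicate 1 (adjusted p up to 0.109). PSAD2 and PSAH1 were called in wild type (log2 0.30 and 0.24) and not in atrx-2 (0.03 and 0.16). The PSAH1 call was lost without wild-type normal-light replicate 2 or 3 or low-light replicate 1 or 2 (adjusted p up to 0.0955). PSAK and PSAN, an antenna-side and a lumenal subunit, were not called, with log2 values of 0.07 and 0.05 in atrx-2 and 0.16 and 0.09 in wild type.

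**Figure D2:**
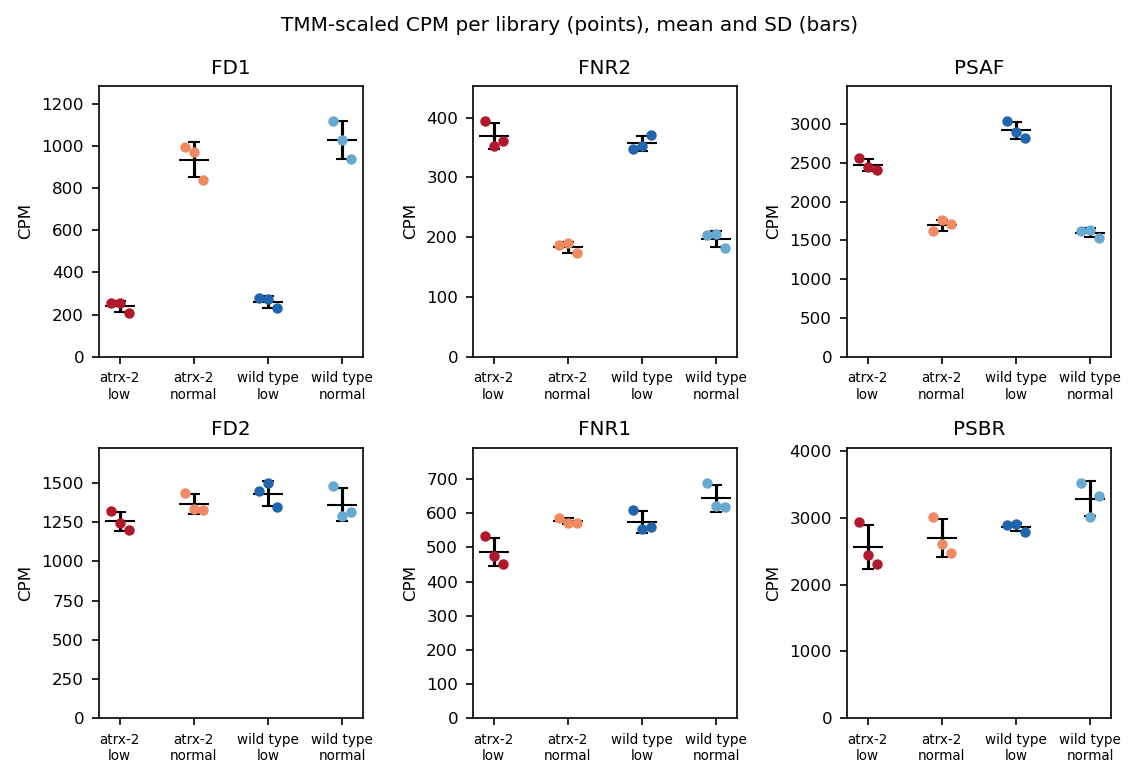
TMM-scaled CPM of 6 genes in each of the 12 libraries (points), with group mean and SD (bars), low light left of normal light within each genotype. FD1 falls and FNR2 rises under low light in both genotypes, while FD2 and FNR1 keep within narrower ranges; PSBR is the member with the highest level per length.

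Of the 10 photosystem II genes, 4 rose and 2 fell in atrx-2 under low light, and 4 rose and 1 fell in wild type. The falls are near the shares of all genes, which were 16.1% higher and 16.9% lower in atrx-2, and 16.6% and 17.6% in wild type. With total counts as library size none rose in either genotype, since PSBO1, PSBP1, PSBQ2 and PSBW lost their calls, while 2 fell in atrx-2 and 3 in wild type (PSBO2, PSBQ1 and PSBR). The genes of the lumenal cap that protects the manganese cluster went different ways. PSBO1, which encodes the main manganese-stabilising protein, rose by log2 0.18 in atrx-2 and 0.32 in wild type, and PSBP1, another extrinsic subunit, by 0.21 and 0.29. Both atrx-2 calls depended on which libraries were kept: that of PSBO1 was lost when any of 11 of the 12 libraries was left out, all but atrx-2 low-light replicate 3 (adjusted p up to 0.197), and that of PSBP1 without atrx-2 normal-light replicate 2 or 3 or low-light replicate 1 or 2 (up to 0.136). PSBO2 fell in atrx-2 (log2 -0.23), a call lost without atrx-2 normal-light replicate 1 or 2 or low-light replicate 3 (adjusted p up to 0.0858), and was not called in wild type (-0.14).

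PSBQ1 (AT4G21280, chr4:11334352-11335815) and PSBQ2 (AT4G05180, chr4:2671523-2673243) encode forms of the extrinsic PsbQ subunit. In atrx-2, PSBQ1 had 1069, 1028 and 1012 CPM under low light, against 1295, 1255 and 1150 under normal light. The wild-type libraries had 1110, 1142 and 1119 CPM under low light, against 1388, 1373 and 1189 under normal light. The light levels did not overlap, and low light was the lower. For PSBQ1 the log2 change was -0.25 ± 0.08 (SE) in atrx-2 and -0.23 ± 0.08 in wild type (edgeR adjusted p = 0.0203 and 0.0317). The call was lost in atrx-2 without normal-light replicate 1 or 2 or low-light replicate 2 or 3 (adjusted p up to 0.0737), and in wild type without normal-light replicate 1 or 2 or any low-light replicate (up to 0.121). PSBQ2, given in full after its values were seen, rose instead. In atrx-2, PSBQ2 had 1407, 1174 and 1140 CPM under low light, against 977, 957 and 917 under normal light. In wild type it had 1377, 1384 and 1324 CPM under low light, against 1069, 1000 and 1062 under normal light. Every low-light value exceeded every normal-light value within its genotype, and atrx-2 low-light replicate 1 was the highest of all. The log2 change was 0.38 ± 0.08 (SE) in atrx-2 and 0.38 ± 0.08 in wild type (edgeR adjusted p = 0.00224 and 0.00224).

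PSBW, a small subunit that holds the supercomplex with its antenna together, rose by log2 0.35 in atrx-2 and 0.33 in wild type. PSBR, PSBX, PSBY and PSBTN were not called in either genotype. Their log2 values were -0.07, 0.23, 0.02 and 0.15 in atrx-2, and -0.20, 0.08, 0.10 and 0.11 in wild type. The summed photosystem II level was 16420 ± 1602 CPM in atrx-2 under low light, against 15260 ± 650 under normal light, and 18310 ± 542 CPM in wild type under low light, against 16900 ± 667 under normal light (SD, n = 3 each).

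Among the 10 carrier and ATP synthase genes, 1 rose and 5 fell in atrx-2 under low light, and 1 rose and 2 fell in wild type. The wild-type counts are near the shares of all genes, 16.6% higher and 17.6% lower, and in atrx-2 these shares were 16.1% and 16.9%. With total counts as library size 6 fell in atrx-2 and 5 in wild type. The largest change of any member was that of FD1 (AT1G10960, chr1:3664187-3665040), which encodes the minor leaf ferredoxin. In atrx-2, FD1 had 254, 255 and 209 CPM under low light, against 994, 972 and 839 under normal light. Wild type had 277, 275 and 229.8 CPM under low light, against 1117, 1029 and 936 under normal light. All 6 low-light libraries lay far below all 6 normal-light libraries. The fitted log2 change was -1.97 ± 0.11 (SE) in atrx-2 and -1.98 ± 0.11 in wild type (edgeR adjusted p = 1.49e-08 and 1.28e-08). This is a level 3.91-fold lower in atrx-2 and 3.94-fold lower in wild type. FD2 (AT1G60950, chr1:22444307-22445291), which encodes the more abundant leaf ferredoxin, was not called. In atrx-2, FD2 had 1318, 1245 and 1201 CPM under low light, against 1437, 1335 and 1324 under normal light. The wild-type libraries had 1445, 1500 and 1345 CPM under low light, against 1482, 1287 and 1311 under normal light. The light levels overlapped in wild type, and in atrx-2 the highest low-light library lay just below the lowest normal-light library. For FD2 the log2 change was -0.12 ± 0.08 (SE) in atrx-2 and 0.07 ± 0.08 in wild type (edgeR adjusted p = 0.252 and 0.507).

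FNR2 (AT1G20020, chr1:6942625-6945091) and FNR1 (AT5G66190, chr5:26450964-26453199) encode the reductases that take electrons from ferredoxin in leaves. In atrx-2, FNR2 had 394, 352 and 361 CPM under low light, against 186, 190.3 and 173 under normal light. In wild type it had 347, 353 and 370.5 CPM under low light, against 204, 206 and 182 under normal light. The light levels were far apart in each genotype. The log2 change was 1.01 ± 0.08 (SE) in atrx-2 and 0.85 ± 0.08 in wild type (edgeR adjusted p = 2.4e-07 and 1.21e-06). In atrx-2, FNR1 had 533, 475 and 453 CPM under low light, against 586, 572 and 572 under normal light. Wild type had 610.2, 553 and 561 CPM under low light, against 689, 622 and 619 under normal light. Low light lay below normal light in each library of both genotypes. The fitted log2 change was -0.24 ± 0.08 (SE) in atrx-2 and -0.16 ± 0.08 in wild type (edgeR adjusted p = 0.0282 and 0.125). The atrx-2 call of FNR1 was lost without any of the atrx-2 normal-light replicates or low-light replicates 2 or 3 (adjusted p up to 0.118).

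PETC (AT4G03280, chr4:1440146-1441863) encodes the Rieske iron-sulfur protein of the cytochrome b6f complex. In atrx-2, PETC had 761, 723 and 686 CPM under low light, against 928, 874 and 850.1 under normal light. The wild-type libraries had 795, 842 and 802 CPM under low light, against 1007, 927 and 914 under normal light. Low-light values lay below normal-light values in each genotype. For PETC the log2 change was -0.29 ± 0.07 (SE) in atrx-2 and -0.22 ± 0.07 in wild type (edgeR adjusted p = 0.00637 and 0.0263). Without wild-type normal-light replicate 1 or low-light replicate 1 or 3 the wild-type call was lost (adjusted p up to 0.113).

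ATPG (AT4G32260, chr4:15573553-15574737) encodes a stalk subunit of ATP synthase. In atrx-2, ATPG had 520, 519 and 504 CPM under low light, against 629, 619 and 598 under normal light. In wild type it had 619, 599 and 564 CPM under low light, against 654, 658 and 609.8 under normal light. The light levels stood apart in atrx-2, and in wild type the highest low-light library passed the lowest normal-light library. The log2 change was -0.26 ± 0.07 (SE) in atrx-2 and -0.11 ± 0.07 in wild type (edgeR adjusted p = 0.00863 and 0.232). ATPC1 and ATPD, which encode the gamma and delta subunits, were not called (log2 0.04 and -0.01 in atrx-2, 0.09 and 0.0083 in wild type). Of the plastocyanin genes, PETE2 fell in atrx-2 (log2 -0.23) and was not called in wild type (-0.18), and PETE1 was called in neither (0.11 and 0.05). The PETE2 call was lost in 7 of 12 cases with 1 library left out, those of atrx-2 normal-light replicates 1, 2 and 3, atrx-2 low-light replicates 2 and 3, wild-type normal-light replicate 1 and wild-type low-light replicate 2 (adjusted p up to 0.162).

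Ratios between the genes of a pair do not depend on library scaling, and pooled over genotype they differed between the light levels in each of the 8 pairs, least firmly in PSAH1/PSAH2. The ratio was taken per effective length in each library, and light labels were permuted within genotype in an exact two-sided test over 400 arrangements, whose smallest p is 0.005; p-values were adjusted over the 8 pairs. FD1/FD2 was 0.265, 0.282 and 0.239 in atrx-2 under low light, against 0.952, 1.00 and 0.872 under normal light. In wild type it was 0.264, 0.253 and 0.235 under low light, against 1.04, 1.10 and 0.984 under normal light. The change in log2 ratio was -1.95 (exact permutation p = 0.005, the smallest the test can give; adjusted p = 0.008). Under normal light both transcripts stood at near equal level per length, and under low light FD2 was well the higher in every library.

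FNR1/FNR2 was 1.24, 1.23 and 1.15 in atrx-2 under low light, against 2.87, 2.74 and 3.02 under normal light. In wild type it was 1.60, 1.43 and 1.38 under low light, against 3.08, 2.76 and 3.11 under normal light. The log2 ratio changed by -1.14 (exact permutation p = 0.005, adjusted p = 0.008). FNR1 stayed the higher of the pair in all 12 libraries.

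PSBQ1/PSBQ2 had a mean of 0.992 in atrx-2 under low light, against 1.53 under normal light, and 0.976 in wild type under low light, against 1.49. PSBO1/PSBO2 had a mean of 3.13 in atrx-2 under low light, against 2.34 under normal light, and 3.19 in wild type under low light, against 2.31. The changes in log2 ratio were -0.62 and 0.44, and that of PSAE1/PSAE2 was -0.30 (exact permutation p = 0.005, adjusted p = 0.008 each). Under low light PSBO1 was thus higher relative to PSBO2, PSBQ2 relative to PSBQ1 and PSAE2 relative to PSAE1.

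The remaining pairs changed less. PETE1/PETE2 changed by 0.29 and PSAD1/PSAD2 by 0.20 (exact permutation p = 0.01, adjusted p = 0.0114 each). Within genotypes the values were 0.34 in atrx-2 and 0.23 in wild type for PETE1/PETE2, and 0.32 in atrx-2 and 0.079 in wild type for PSAD1/PSAD2. The light levels overlapped in wild type for both pairs, with PSAD1/PSAD2 at 1.77 to 1.86 under low light, against 1.62 to 1.78 under normal light. PETE1 stood at 0.0765 to 0.106 of the PETE2 level in every library. PSAH1/PSAH2 changed by -0.10 (exact permutation p = 0.035, adjusted p = 0.035). This was lost without wild-type normal-light replicate 3 (exact permutation p = 0.07) or wild-type low-light replicate 2 (exact permutation p = 0.08), and reached exact permutation p = 0.05 without wild-type low-light replicate 3.

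**Figure D3:**
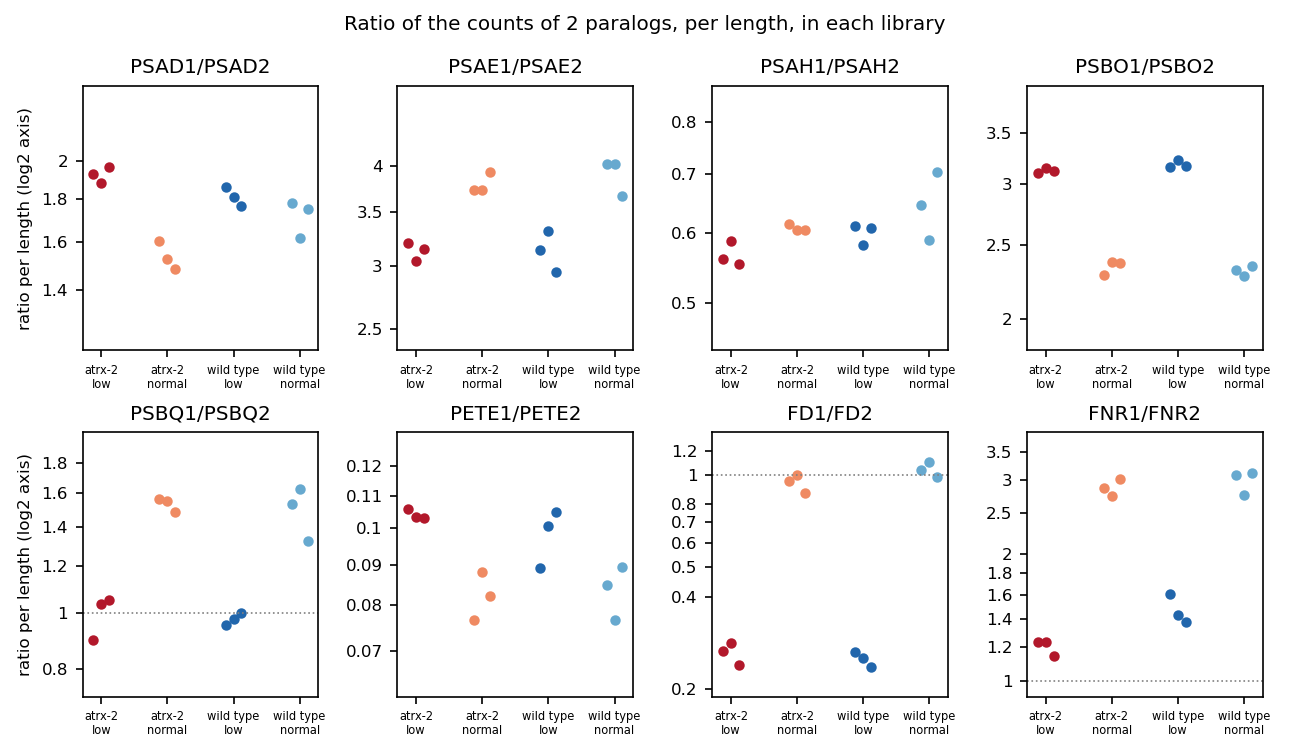
Ratio per effective length of the 2 genes of each pair in every library, on a log2 axis; the dotted line marks equal levels. Under low light FD1/FD2 sits between 0.235 and 0.282, against 0.872 to 1.10 under normal light, and FNR1/FNR2 between 1.15 and 1.60, against 2.74 to 3.11.

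No 50-base window of the reference transcripts was shared between the 2 genes of any pair. Windows shared with another listed locus were found in 6 members: 49.2% of windows in PSAH1, 19.1% in PSAH2, 9.73% in FNR1, 3.6% in FD1, 2.51% in PSAE2 and 0.272% in PSBR. These shares refer to the RefSeq models, which are longer than the deposited transcript for 25 of the 32 members (1300 against 665 bases for PSAH1), and are not shares of the counted transcripts. The values of PSAH1 and PSAH2 are therefore uncertain, also because it is not stated whether the counting used strand.

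Other nuclear genes of the electron transport chain were counted in the same way. Over all tested genes 16.9% fell under low light in atrx-2 and 17.6% in wild type. Of 20 genes for the NDH complex and cyclic electron flow, which return electrons from photosystem I to plastoquinone, 19 fell under low light in atrx-2 and 19 in wild type. The strongest falls were of NDHM and NDHT, subunits of that complex, with log2 values of -1.34 and -1.21 in atrx-2 and -1.42 and -1.32 in wild type. The median log2 of the 20 was -0.55 in atrx-2 and -0.53 in wild type, below that of each of the 3 member families. The gene not called was PNSB5 in atrx-2 (log2 -0.17) and PNSL5 in wild type (-0.13).

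Of 12 other isoforms and docking proteins, 1 rose, RFNR2, and 2 fell in each genotype. These counts are not above the shares of all genes, 16.1% higher and 16.9% lower in atrx-2, and 16.6% and 17.6% in wild type. PSBS, the photosystem II protein that senses lumen acidity for photoprotection, fell (log2 -0.71 in atrx-2 and -0.62 in wild type), as did PETM, a small cytochrome b6f subunit (-0.52 in atrx-2 and -0.46 in wild type). Of 20 genes for assembly, repair and state transitions, 3 rose (ALB3, PYG7, TAP38) and 5 fell (PSB28, PSB33, HCF101, STN8, VAR1) in atrx-2. In wild type 5 rose (ALB3, PYG7, CYP38, TAP38, DEG1) and 5 fell (PSB28, PSB33, PAM68, HCF101, STN8). The counts of this list lie close to or somewhat above the same shares of all genes. PYG7, an assembly factor of photosystem I, rose by log2 0.43 in atrx-2, and STN8, a photosystem II kinase, fell (log2 -0.42). In wild type TAP38, the phosphatase that reverses state transitions, rose by 0.41, and PSB28, a photosystem II assembly factor, fell (log2 -0.48).

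Of 6 regulators of nuclear photosynthesis genes, 1 rose (GUN1) and 4 fell (CGA1, GNC, HY5 and GLK2) in each genotype. Over all genes 16.1% rose and 16.9% fell in atrx-2, and 16.6% and 17.6% in wild type. CGA1 and GNC, GATA factors that promote greening, had log2 values of -2.04 and -1.29 in atrx-2 and -2.19 and -1.20 in wild type. HY5, a factor of light signalling, had -1.06 in atrx-2 and -1.24 in wild type. GLK1, an activator of photosystem and antenna genes, was not called (0.05 and 0.11). Genes in these other lists whose names follow a count of 5 or fewer, and GLK1, were picked after their values were seen.

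Markers of other cell types were measured beside the light effect, where 16.1% of all genes rose and 16.9% fell in atrx-2, and 16.6% and 17.6% in wild type. Of 11 root markers, 4 rose under low light in atrx-2 (PIN2, PLT1, PLT2, WOX5) and 3 in wild type (PIN2, PLT2, WOX5), and their summed level was 154 to 173 CPM in atrx-2 under low light, against 124 to 146 under normal light, and 140.3 to 156 CPM in wild type under low light, against 135 to 157 under normal light. Of 3 markers of photosynthetic leaf cells 1 rose (CAB3) and 1 fell (RCA) in each genotype. Of 8 shoot markers FIL and TMM rose and AS1 fell in both genotypes, and SPCH rose in wild type; no vascular marker of 2 was called. The shoot markers summed to 131 to 137 CPM in atrx-2 under low light, against 129.5 to 150.1 under normal light, and to 127 to 151 CPM in wild type under low light, against 126 to 147 under normal light. The vascular markers summed to 104 to 112 CPM in atrx-2 under low light, against 106 to 111 under normal light, and to 115 to 129 CPM in wild type under low light, against 102 to 124 under normal light. No marker was at 0 in all libraries. The part of tissue make-up in the light effect was not tested.

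Between atrx-2 and wild type none of the 32 genes was called. Under low light 0.0722% of all genes were called, under normal light 0.0674% and averaged over light 0.308%. At an unadjusted p under 0.05, edgeR counted 15 members under low light, 2 under normal light and 22 averaged, where 6.54%, 8.62% and 10.2% of all genes were counted. With DESeq2, 1 member was called under low light, PSAF (log2 -0.25, adjusted p = 0.0279), none under normal light, and 1 averaged, FNR1 (log2 -0.20, adjusted p = 0.0436). The share of all genes that DESeq2 called is not given here, so these calls cannot be set against it.

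The fitted differences were small and mostly negative. Averaged over light, all 32 members had a log2 below 0, against 50.9% of all genes. Some other photosynthesis lists lay mostly below 0 as well: 19 of 20 NDH and cyclic flow genes (median -0.15) and 20 of 20 assembly, repair and state transition genes (-0.07). Of 12 other isoforms and docking proteins 10 did (-0.08). Of the 6 regulators of nuclear photosynthesis genes, 4 lay below 0 (-0.03). The chloroplast-encoded subunits were split, with 15 of 31 below 0 (median 0.01). At both light levels separately 28 of the 32 members were below 0, against 28.6%. The median was -0.17 under low light, -0.11 under normal light and -0.14 averaged, where the medians of all genes were 0.0005, -0.0046 and -0.0027. The 95% intervals of the averaged log2 ran from -0.37 to 0.09 over the members, so a fall below 0.772-fold and a rise above 1.06-fold lie outside all of them. Adjusted p-values of the averaged difference were 0.21 to 0.901.

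PSBR had the most negative averaged difference (log2 -0.22 ± 0.07 SE; adjusted p = 0.278 by edgeR). In atrx-2, PSBR had 2941, 2440 and 2306 CPM under low light, against 3005, 2611 and 2468 under normal light. Wild type had 2886, 2902 and 2791 CPM under low light, against 3520, 3006 and 3330 under normal light. It too is given in full after its values were seen. Under normal light the highest atrx-2 library lay just below the lowest of wild type, while under low light atrx-2 replicate 1 lay above all wild-type libraries. PSBTN (log2 -0.22 ± 0.07 SE), a small lumenal subunit of photosystem II, and FNR1 (-0.20 ± 0.06 SE) followed, and FNR2 stood nearest to 0 (-0.03 ± 0.05 SE).

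The members moved together within a library. In atrx-2 low-light replicate 1 all 32 stood above their own group mean, with a median of log2 0.11, and in replicate 3 none did, with a median of log2 -0.11. In wild-type normal-light replicate 1 all 32 stood above the mean (log2 0.08). These shifts are about as large as the genotype difference, so the 32 signs are not 32 separate observations. Without each library in turn, all 32 averaged values stayed below 0, and the averaged median relative to all genes ran from -0.16 to -0.11; with total counts as library size 31 stayed below 0.

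Replicate values of the genotypes did not overlap in 14 members under low light and 10 under normal light, all lower in atrx-2, where 6.66% and 6.62% of all genes were lower and 6.22% and 5.54% higher. They stood apart at both light levels in 5 members, again lower, where 0.813% of all genes were lower and 0.707% higher. The 3 markers of photosynthetic leaf cells had a summed level of 21210 to 23590 CPM in atrx-2 under low light, against 24870 to 25980 in wild type, and 22910 to 24890 in atrx-2 under normal light, against 24950 to 26650 in wild type. Their sums did not overlap between the genotypes at either light level. The 11 root markers had 154 to 173 CPM in atrx-2 under low light, against 140.3 to 156 in wild type. Under normal light they had 124 to 146 CPM in atrx-2, against 135 to 157 in wild type. The 2 vascular markers, SUC2 and APL, summed to 104 to 112 CPM in atrx-2 under low light, against 115 to 129 in wild type, without overlap, and to 106 to 111 CPM in atrx-2 under normal light, against 102 to 124 in wild type. The 8 shoot markers summed to 131 to 137 CPM in atrx-2 under low light, against 127 to 151 in wild type. Under normal light they summed to 129.5 to 150.1 CPM in atrx-2, against 126 to 147 in wild type. Under low light SUC2 (log2 -0.21) and APL (-0.26) had an unadjusted edgeR p under 0.05, as had 2 of 8 shoot, 2 of 3 leaf and 1 of 11 root markers. Averaged over light, 3 of 3 leaf, 1 of 2 vascular, 2 of 8 shoot and 2 of 11 root markers did. Over all genes these shares were 6.54% under low light and 10.2% averaged. None of these markers was called for genotype, and their part in the members' difference was not tested. No gene was called for genotype in the other 4 nuclear lists or among the chloroplast-encoded subunits.

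**Figure D4:**
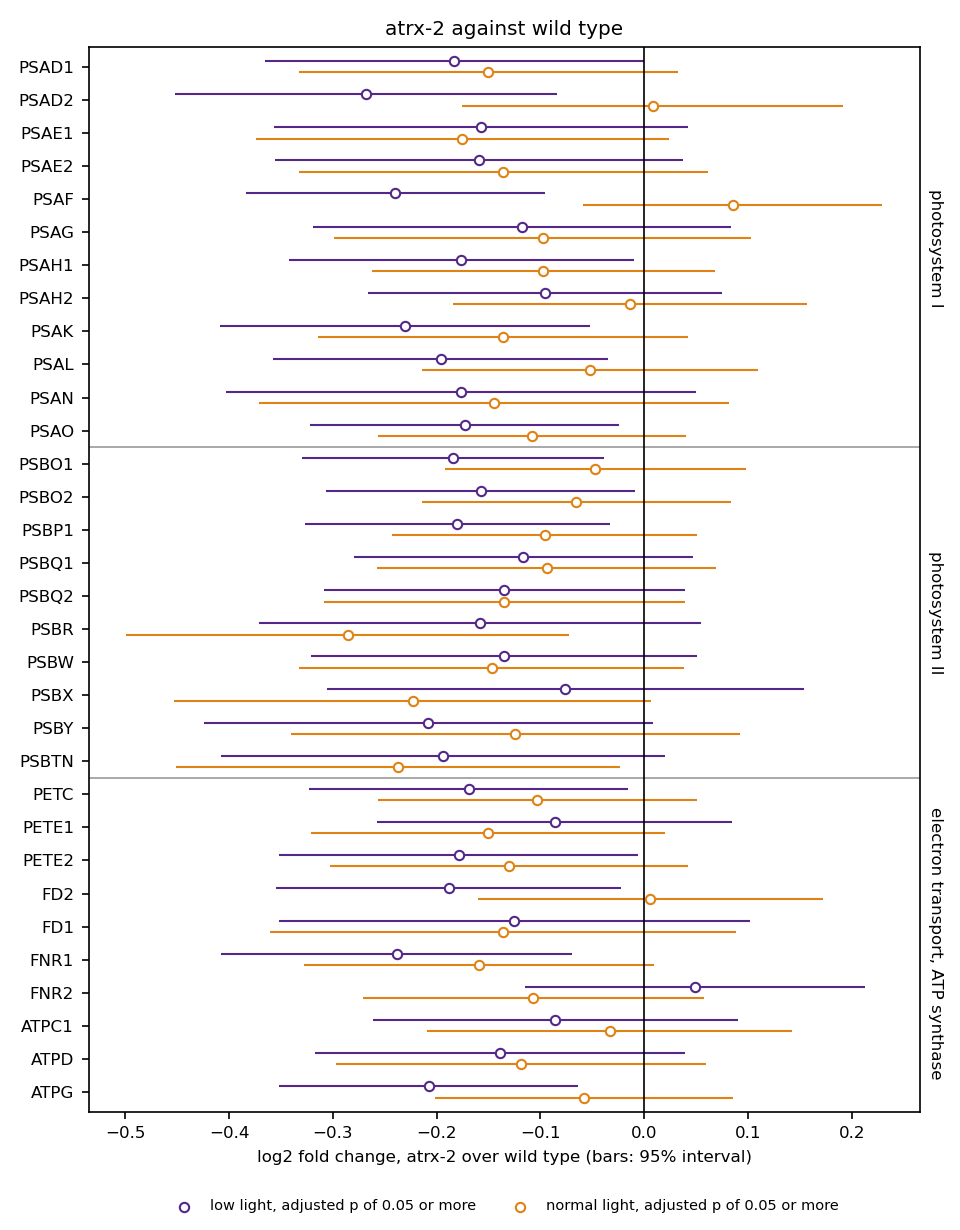
Fitted log2 fold change of each of the 32 genes, atrx-2 over wild type, under low light (purple) and normal light (orange), with 95% intervals; no gene had an adjusted p under 0.05. Nearly all points lie between 0 and -0.3; PSAF, PSAD2 and FD2 lie above 0 under normal light and FNR2 under low light.

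**Figure D5:**
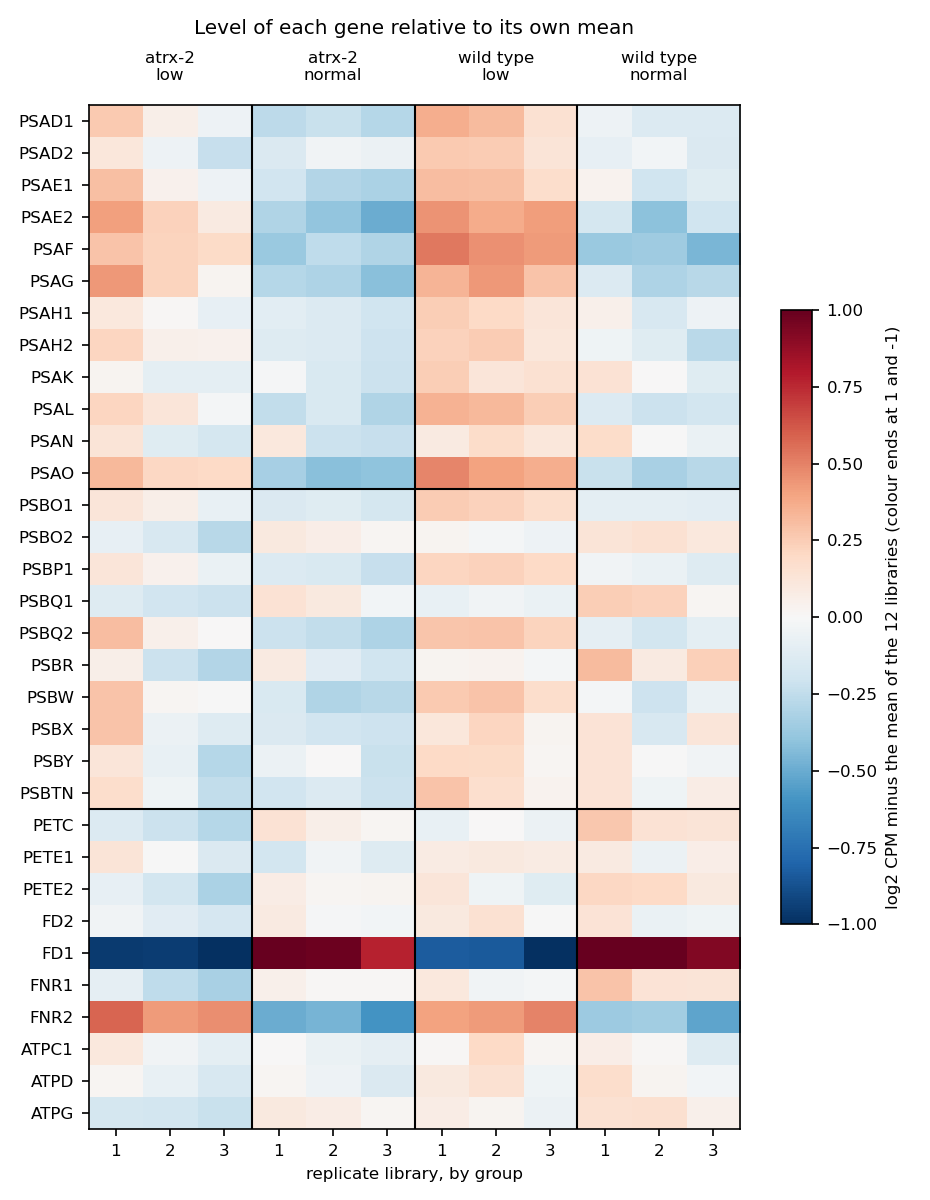
log2 CPM of each gene in each library minus the mean over all 12 libraries of that gene, grouped by genotype and light, with black lines between families. Most photosystem I genes are higher in the low-light columns of both genotypes, while PSAK, PSAN and, in atrx-2, PSAD2 change little. FD1 and FNR2 change most, and whole columns such as atrx-2 low-light replicates 1 and 3 are shifted together.

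No member showed a light response that differed between the genotypes past the threshold. The interaction was called for 0.00481% of all genes. At an unadjusted p under 0.05 it counted 2 members, against 4.4% of all genes, and DESeq2 called no member. The 2 were PSAF, with an interaction log2 of -0.32 ± 0.10 SE (edgeR adjusted p = 0.978), and PSAD2, with -0.28 ± 0.12 SE (edgeR adjusted p = 0.978). For FD1 and FNR2 the interaction was 0.01 ± 0.15 SE and 0.16 ± 0.11 SE. Over the 32 members its standard errors were 0.0951 to 0.152 on the log2 scale.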

How the data were processed

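Whole seedlings gave 12 libraries of total RNA, sequenced as single reads of 50 bases on 1 flow cell, per the labels. The deposited files hold estimated counts for 33602 transcripts, 1 per gene, made by the authors with kallisto 0.42 against TAIR10, per the submitters' processing notes. Those notes list DESeq2 too, without its role, and no further kallisto options. The deposited TPM values were not used. The effective lengths, another value the authors deposited, served for levels per kilobase.

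Estimated counts were rounded to whole numbers, filtered with filterByExpr and fitted in R 4.3.3 with edgeR 4.0.16 over all 4 groups (TMM factors, quasi-likelihood F test, Benjamini-Hochberg over 20783 genes). The standard error is the log2 fold change over the square root of F. DESeq2 1.42.0 was an alternative, beside other scalings, filters, a replicate block and each library left out. The biological coefficient of variation was 10.4%, with 8 residual degrees of freedom. The fit was also run on simulated data, with settings and outcome not given here. Gene ratios used a pseudocount of 0.5 counts and 400 arrangements of the light labels. Coordinates, upstream sequences and motif counts come from the RefSeq TAIR10.1 annotation. Replicate numbers are shared between groups in the labels, but over all tested genes the deviations of same-numbered libraries correlated by only -0.15 to 0.17, so they were not treated as pairs. No replicates agreed within sampling noise.

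Members and lists were chosen with earlier results of these data known. Members given in every library are the 5 largest rises and falls called in each genotype under low light and both genes of the 2 pairs with the largest ratio changes. For other lists the rule was to name up to 2 called genes per light comparison. Further genes of these lists and markers were named after their values were seen.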

Additional observations from a re-analysis of the deposited data

How the results depend on the processing

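Under the alternatives, members called for light ran from 13 to 20 in atrx-2 and from 14 to 22 in wild type. The shares of all genes called under each alternative are not given here. Changes in these counts therefore cannot be set against a background. Total counts as library size gave 13 in atrx-2. Leaving out 1 library gave 14 to 19 in atrx-2 and 16 to 18 in wild type. The replicate number as a block gave 20 in atrx-2 and 22 in wild type, and 0 for genotype. The 4 wild-type additions were PSAK (higher), PSBR, PETE2 and FNR1 (lower). Over all tested genes the numbers do not pair the libraries, but the members shifted with them: in all 4 groups the median member lay above its group mean in replicate 1 (log2 0.04 to 0.11) and below it in replicate 3 (-0.11 to -0.05). For genotype, DESeq2 called 1 member under low light and 1 averaged over light; every other alternative called 0. The count of members below 0 for averaged genotype was 31 to 32 under alternatives chosen after seeing the data.

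The called light changes of the members given in every library under the selection rule kept their sign under all alternatives. With 1 library left out, calls were lost for 7 of 20 members in atrx-2 (PSAH2, PSBO1, PSBO2, PSBP1, PSBQ1, PETE2, FNR1) and 3 of 18 in wild type (PSAH1, PSBQ1, PETC). The light effect on paralog ratios kept its direction under all alternatives. Within a single genotype, where 3 against 3 cannot go below an exact permutation p of 0.1, the log2 effect in atrx-2 and in wild type was 0.32 and 0.079 for PSAD1/PSAD2, 0.42 and 0.46 for PSBO1/PSBO2, -1.85 and -2.05 for FD1/FD2, and -1.26 and -1.02 for FNR1/FNR2. For PSAH1/PSAH2 it ran from -0.13 to -0.071 with 1 library left out.

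With 3 libraries a group, standard errors of the genotype log2 were 0.07 to 0.11 at 1 light level, and differences of several standard errors were not called (PSBR under normal light, -0.29 ± 0.10 SE).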
